A study of Homo sapiens with 6 samples.

Results

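The genes examined here encode the subunits of the proteasome, its assembly chaperones, its activators and its inhibitor. They are the 48 genes on the primary chromosomes of the count table, out of 78932 genes in all, whose names read PSM, a letter from A to G and a number. PSMB8, PSMB9 and PSMB10, which encode the inducible catalytic subunits of the immunoproteasome, were set apart from the other 45. The samples were T24 cells, a human urothelial (bladder) carcinoma line, transfected with a control siRNA (siNC, 3 cultures) or with siRNA against TRIM28 (siTRIM28, 3 cultures), and poly(A) RNA was sequenced from all of them, with the labels giving 1 batch. All 6 cultures came from 1 cell line grown in serum-containing medium and received a transfection reagent and an siRNA, so no untransfected cells were compared. Which of the TRIM28 siRNAs the cultures received and how long after transfection they were collected are not given in the sources used here. TRIM28 encodes a SUMO E3 ligase and corepressor.

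The proteasome degrades ubiquitin-tagged proteins. Its core particle is a barrel of stacked alpha and beta rings in which PSMB5, PSMB6 and PSMB7 carry the active sites, and its regulatory particle binds ubiquitin, unfolds the substrate with a ring of ATPases (PSMC genes) and feeds it into the barrel. Interferons induce PSMB8, PSMB9 and PSMB10, which replace PSMB5, PSMB6 and PSMB7 and shift cleavage toward peptides that fit MHC class I. Subunit genes are known to be transcribed together by NFE2L1 when proteasome activity is short.

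Libraries held 11712623 to 14018052 counts over all genes. TRIM28 was at 102, 101 and 108 CPM (counts per 1000000 counts of the genes tested) in the siNC cultures and at 9.28, 8.11 and 9.21 CPM in the siTRIM28 cultures (log2 fold change −3.54 ± 0.07 SE, edgeR adjusted p = 1.0271e-10). The keratins KRT8 and KRT18 averaged 1416.8 and 1152.7 counts per library, while the epithelial markers EPCAM, CDH1 and KRT19 and the luminal markers GATA3, UPK2 and UPK3A averaged 5.5 counts or fewer. Of the markers of immune cells, PTPRC, CD3E and LST1 averaged 1.5 counts or fewer, and CD68 averaged 4545. The siTRIM28 culture 1 stood apart from its replicates. The chi-square per degree of freedom between its counts and theirs was 6.96 and 6.28, against 1.24 between the other siTRIM28 cultures, 1.08 between siNC cultures 1 and 2, and 4.44 and 4.50 between siNC culture 3 and those. A value near 1 is what counting noise alone gives.

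In siNC cells the levels per length, in reads per kilobase of annotated exon scaled to the size of the library (RPKM), ran from 0.783 for PSMG2, an alpha-ring assembly chaperone, to 192 for the alpha subunit PSMA7. The annotated length was 12490 bases for PSMG2 and 1752 for PSMA7, so the order of genes by RPKM also depends on the annotation. By CPM, PSMG2 averaged 9.77 in siNC cultures and PSMB10 2.22. The median over the 43 measured genes outside the immunoproteasome was 18.9 RPKM. PSMB8, PSMB9 and PSMB10 lay at 3.72, 1.11 and 1.37 RPKM, and the subunits they replace at 34.0, 36.6 and 66.9 RPKM. PSMA8 and PSMB11, known from testis and thymus, had 0 counts in all 6 libraries. The other 46 genes passed the filter of at least 10 counts in at least 3 libraries.

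Silencing of TRIM28 did not move the constitutive proteasome genes as a block. Of the 43 tested, 15 passed the edgeR test at an adjusted p under 0.05 (34.9%), against 41.8% of all 18474 genes tested. Of these 15, 7 rose and 8 fell, where 21.3% of all genes tested rose and 20.5% fell. Their median log2 fold change was 0.0084, and that of all genes tested was 0.015. The groups did not overlap in CPM for 21 of the 43 (12 lower, 9 higher), and the share among all genes was 52%. Summed over the 45 genes, the siNC cultures held 4947, 5002 and 5038 CPM and the siTRIM28 cultures 5150, 4997 and 4948 CPM. The sums of the groups overlapped, with means of 4996 ± 46.3 and 5032 ± 105 CPM (SD, n = 3).

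The ATPases were the subcomplex with the largest share of genes past the threshold. Of the 6 genes, 4 rose, 2 did not pass and none fell. That is 66.7% past the threshold, where 41.8% of all genes tested passed and 21.3% rose. PSMC2 was at 91.9, 90.0 and 90.6 CPM in siNC and at 133, 107 and 112 CPM in siTRIM28 cultures (log2 fold change 0.37 ± 0.07 SE, adjusted p = 0.0013). All siTRIM28 cultures lay above all siNC cultures, and culture 1 was the highest. PSMC6 was at 66.4, 68.3 and 67.6 CPM in siNC and at 86.2, 78.5 and 82.3 CPM in siTRIM28 cultures (0.29 ± 0.05, adjusted p = 0.00095), with the groups again apart. PSMC3 was at 187, 188 and 179 CPM in siNC and at 255, 211 and 196 CPM in siTRIM28 cultures (0.26 ± 0.08, adjusted p = 0.020). Culture 1 held the highest value, and the lowest siTRIM28 culture was close to the highest siNC culture. PSMC1 was at 412, 431 and 436 CPM in siNC and at 562, 473 and 469 CPM in siTRIM28 cultures (0.23 ± 0.06, adjusted p = 0.011), where culture 1 again exceeded its replicates. PSMC4 and PSMC5, from the same ring, had log2 fold changes of −0.01 (95% confidence interval −0.13 to 0.11) and 0.0084 (−0.10 to 0.12).

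Summed, the 6 ATPase genes held 995 ± 14.1 CPM in siNC and 1148 ± 90.9 CPM in siTRIM28 cultures (SD, n = 3). Without siTRIM28 culture 1 the rises kept their direction and passed the test, but became smaller, with log2 fold changes of 0.27 for PSMC2, 0.25 for PSMC6, 0.14 for PSMC3 and 0.14 for PSMC1 (edgeR adjusted p from 4.8911e-05 to 0.0061). PSMC1 and PSMC3 did not pass without siNC culture 1 (adjusted p = 0.056 for each), nor PSMC3 without siNC culture 3 (0.074). PSMC1 has 13 annotated pseudogenes, whose summed counts came to 5.75% of its own. PSMC2 overlaps PMPCB on its own strand and DNAJC2 on the other, with log2 fold changes of 0.02 and −0.02.

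**Figure D1:**
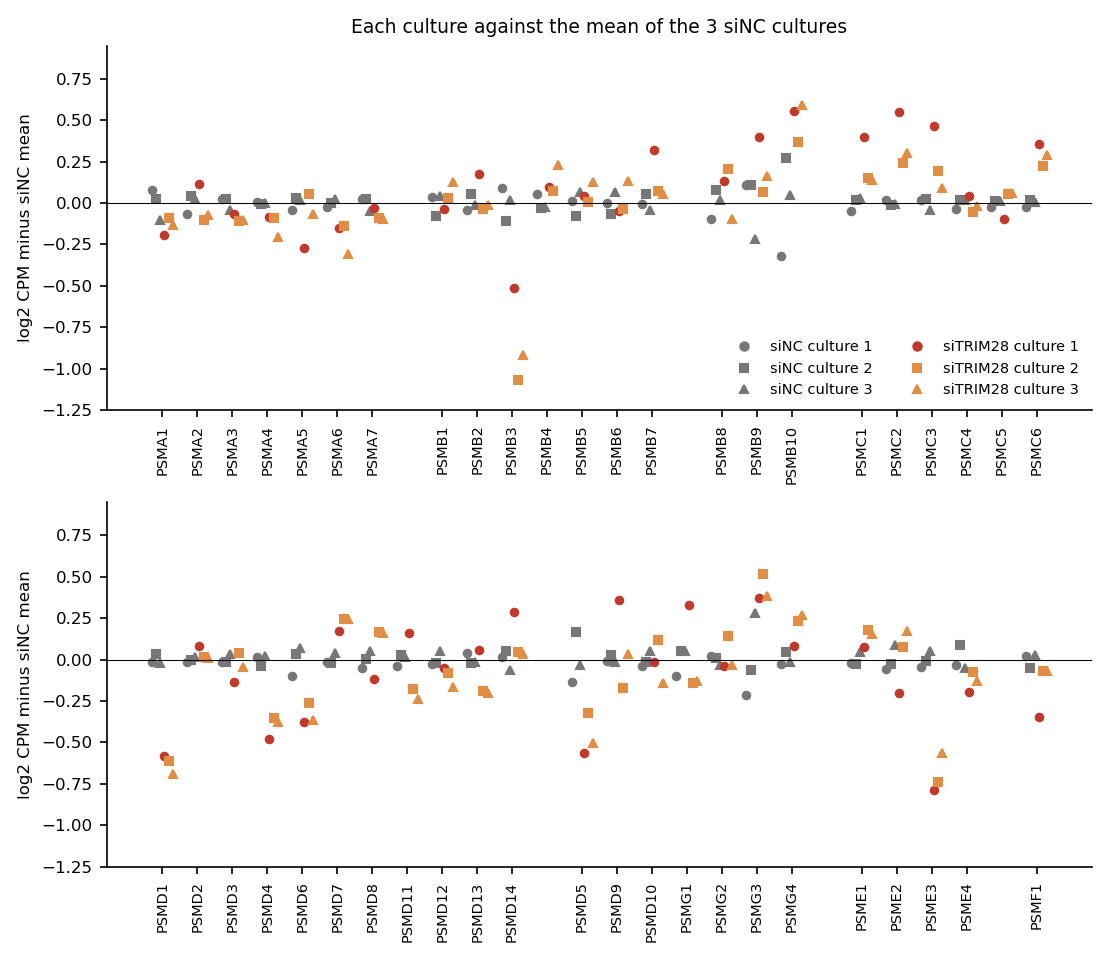
Each tested proteasome gene is shown in each culture as its log2 CPM minus the mean of the 3 siNC cultures (vertical axis), with grey for siNC, red for siTRIM28 culture 1 and orange for siTRIM28 cultures 2 and 3. The 4 ATPase genes that rose are highest in siTRIM28 culture 1, and PSMB3, PSMD1, PSMD4 and PSME3 are low in all 3 siTRIM28 cultures.

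In the non-ATPase part of the regulatory particle 3 of 11 genes fell and 1 rose (36.4% passed). Of all genes tested 41.8% passed, 20.5% fell and 21.3% rose. PSMD1, a large scaffold subunit of the base, was at 164, 170 and 164 CPM in siNC and at 111, 108 and 103 CPM in siTRIM28 cultures (log2 fold change −0.63 ± 0.05 SE, adjusted p = 8.4465e-07). PSMD4, a receptor for ubiquitin chains, was at 127, 122 and 127 CPM against 90.1, 98.1 and 96.8 CPM (−0.40 ± 0.05, adjusted p = 4.7398e-05). PSMD6, a lid subunit, was at 59.8, 65.7 and 67.3 CPM against 49.4, 53.5 and 49.8 CPM (−0.34 ± 0.06, adjusted p = 0.0012). For these 3 genes every siTRIM28 culture was below every siNC culture, and the fall was as clear in culture 1 as in the others.

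PSMD7, the lid subunit that pairs with the deubiquitinase PSMD14, was at 255, 255 and 265 CPM in siNC and at 291, 306 and 306 CPM in siTRIM28 cultures (0.22 ± 0.04, adjusted p = 0.00099). It was higher in all 3. The gene overlaps PDPR2P on the opposite strand, whose counts were 45.7% to 48.4% of those of PSMD7 in every library and whose log2 fold change was 0.21, so reads of this pair cannot be told apart if they were counted without strand. PSMD14 itself had a log2 fold change of 0.13 (−0.02 to 0.28). PSMD2, the most abundant of the 48 by CPM, held 802 ± 9.17 CPM in siNC and 822 ± 23.1 CPM in siTRIM28 cultures (0.04, interval −0.04 to 0.11), and the other 5 non-ATPase genes, which also did not pass, ran from −0.11 for PSMD13 to 0.07 for PSMD8.

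In the core particle 3 of 14 tested genes passed (21.4%), all lower in siTRIM28 cells, where 41.8% of all genes tested passed and 20.5% fell. PSMB3, a beta subunit without an active site, changed most of the 48 genes and was at 23.98, 20.9 and 22.8 CPM in siNC and at 15.7, 10.6 and 11.8 CPM in siTRIM28 cultures (log2 fold change −0.81 ± 0.12 SE, adjusted p = 0.00021). The groups were apart, and culture 1 was the least reduced, so that the fold change was −1.0 without it. The 6 other beta genes, PSMB1, PSMB2, PSMB4, PSMB5, PSMB6 and PSMB7, did not pass, at 0.02 to 0.15. PSMB7 was nearest, at 119, 124 and 116 CPM in siNC and at 149, 126 and 124 CPM in siTRIM28 cultures (0.15, adjusted p = 0.093). Culture 1 was the highest there, and siTRIM28 culture 3 lay within the range of the siNC cultures. PSMB7 passed with upper-quartile scaling (0.19, adjusted p = 0.040) and was at 0.06 without siTRIM28 culture 1 (adjusted p = 0.27).

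All 7 alpha genes measured had fold changes below 0, from −0.20 to −0.02 on the log2 scale. Of them 2 passed (28.6%), against 41.8% of all genes tested. PSMA6 was at 121, 123 and 125 CPM in siNC and at 111, 112 and 99.2 CPM in siTRIM28 cultures (−0.20 ± 0.05 SE, adjusted p = 0.011). PSMA4 was at 198, 196 and 197 CPM against 186, 185 and 171 CPM (−0.12 ± 0.04, adjusted p = 0.041). For both the groups were apart. PSMA4 did not pass when any library other than siTRIM28 culture 1 was left out (adjusted p up to 0.12). An unnamed gene model on the same strand as PSMA6 spans it and held 97.4% to 104% of its counts in each library, with a log2 fold change of −0.22. Summed over the core particle, levels were 1275 ± 8.16 CPM in siNC and 1223 ± 27.1 CPM in siTRIM28 cultures, with no overlap between the groups.

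Of the 7 assembly chaperones, PSMG3 rose and PSMD5 fell (28.6% passed, against 41.8% of all genes tested). PSMD5, which holds ATPases of the base before assembly, was at 13.8, 17.0 and 14.8 CPM in siNC and at 10.2, 12.1 and 10.6 CPM in siTRIM28 cultures (log2 fold change −0.48 ± 0.10 SE, adjusted p = 0.0027). PSMG3, which works with PSMG4 in building the alpha ring, was at 5.18, 5.78 and 7.37 CPM against 7.86, 8.70 and 7.94 CPM (0.42 ± 0.14, adjusted p = 0.034). The groups were apart for both, by a narrow margin for PSMG3, which rests on 92.2 counts per library on average. PSMG3 did not pass when siNC culture 1 or 2 or siTRIM28 culture 2 or 3 was left out (adjusted p from 0.072 to 0.15), nor with DESeq2 (0.086). PSMD5 overlaps CUTALP on the opposite strand. CUTALP held 40.5% to 74.0% of the counts of PSMD5 and fell more, with a log2 fold change of −1.14 (adjusted p = 2.195e-05). PSMG4 had a log2 fold change of 0.19 (adjusted p = 0.084), and PSMG1, PSMG2, PSMD9 and PSMD10 lay between −0.0080 and 0.09.

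The activators differed among themselves. PSME3, which forms a ring in the nucleus and opens the core without ubiquitin, was at 98.4, 101 and 105 CPM in siNC and at 58.7, 60.8 and 68.7 CPM in siTRIM28 cultures (log2 fold change −0.69 ± 0.06 SE, adjusted p = 4.8238e-06). All 3 siTRIM28 cultures were well below all siNC cultures. Of all genes tested, 14.5% had an absolute fold change at least as large. BECN1, which overlaps PSME3 on the opposite strand, had a log2 fold change of 0.06 (adjusted p = 0.44). PSME4, a nuclear activator of another family, had a log2 fold change of −0.14 (adjusted p = 0.12), and the inhibitor PSMF1 of −0.16 (adjusted p = 0.094).

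PSME1 and PSME2 encode the partners of the interferon-inducible activator ring. PSME1 was at 206, 205 and 215 CPM in siNC and at 220, 236 and 232 CPM in siTRIM28 cultures (0.14 ± 0.04, adjusted p = 0.025). PSME2 was at 83.3, 85.3 and 92.1 CPM in siNC and at 75.4, 91.6 and 98.0 CPM in siTRIM28 cultures (0.02, interval −0.16 to 0.21, adjusted p = 0.86). The groups were apart for PSME1 and overlapped for PSME2, in which siTRIM28 culture 1 was the lowest of the 6. PSME1 did not pass without siNC culture 1 or 2 or siTRIM28 culture 2 or 3 (adjusted p from 0.090 to 0.15), nor with DESeq2 (0.12). PSME2 was at −0.07 without siTRIM28 culture 3 and at 0.13 without siTRIM28 culture 1 (adjusted p = 0.58 and 0.060). PSME2 overlaps an unnamed gene model and RNF31 on the opposite strand. They held 37.3% to 53.4% and 17.2% to 28.8% of its counts in each library. Both fell, with log2 fold changes of −0.25 and −0.35 (edgeR adjusted p = 0.011 and 0.0026). How far they share reads with PSME2 was not tested. The difference between PSME1 and PSME2 was not tested either.

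The immunoproteasome genes, which interferon induces, were compared on their own. For reference, 4 other genes that interferon induces, chosen after their values were seen, had higher levels in siTRIM28 cells. IFIT1, IFIT2 and IFIT3, antiviral effectors, had log2 fold changes of 3.39, 4.27 and 4.29, and ISG15, a ubiquitin-like modifier, of 1.36 (all with an edgeR adjusted p of 2.5707e-05 or lower). Of the inducible genes of the proteasome, PSMB8, PSMB10, PSME1 and PSME2 hold a match to the interferon-stimulated response element at a start and are shown here with PSMB9, in whose window none was found. They are stretches from 100 bases before to 50 bases after a RefSeq transcription start (GRCh38.p14), written 5′ to 3′ on the strand of the gene. Capitals mark the match, which is GAAA, any 2 bases and GAAA again, or the reverse complement of this.
PSMB8: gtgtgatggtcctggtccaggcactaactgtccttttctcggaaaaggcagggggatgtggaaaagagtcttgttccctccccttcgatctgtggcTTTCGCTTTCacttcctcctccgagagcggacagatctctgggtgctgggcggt
PSMB9: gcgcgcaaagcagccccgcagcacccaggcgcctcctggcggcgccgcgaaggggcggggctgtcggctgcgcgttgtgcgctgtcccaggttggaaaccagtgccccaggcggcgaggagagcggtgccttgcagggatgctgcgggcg
PSMB10: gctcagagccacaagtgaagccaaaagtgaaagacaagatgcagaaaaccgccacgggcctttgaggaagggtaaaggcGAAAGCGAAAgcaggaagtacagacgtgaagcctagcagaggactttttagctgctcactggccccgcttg
PSME1: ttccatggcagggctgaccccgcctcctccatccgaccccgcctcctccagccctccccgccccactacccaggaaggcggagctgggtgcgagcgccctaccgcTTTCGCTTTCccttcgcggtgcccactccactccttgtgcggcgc
PSME2: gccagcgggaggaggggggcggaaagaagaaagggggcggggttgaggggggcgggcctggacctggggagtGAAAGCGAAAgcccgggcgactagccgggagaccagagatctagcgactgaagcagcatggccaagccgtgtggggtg
The stretches lie at chr6:32843998-32844147 (minus strand) for PSMB8, chr6:32854092-32854241 (plus strand) for PSMB9, chr16:67936801-67936950 (minus strand) for PSMB10, chr14:24136094-24136243 (plus strand) for PSME1, chr14:24146561-24146710 (minus strand) for PSME2. That of PSMB8 belongs to 1 of its 2 RefSeq starts.

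PSMB8 was at 12.1, 13.7 and 13.1 CPM in siNC and at 14.2, 14.9 and 12.1 CPM in siTRIM28 cultures (log2 fold change 0.09 ± 0.09 SE, adjusted p = 0.49). PSMB9 was at 5.04, 5.06 and 4.0 CPM against 6.21, 4.90 and 5.24 CPM (0.22 ± 0.16, adjusted p = 0.30). In both genes the groups overlapped, the lowest PSMB8 value being in siTRIM28 culture 3 and the highest PSMB9 value in siTRIM28 culture 1. PSMB10 was at 1.73, 2.67 and 2.27 CPM in siNC and at 3.29, 2.87 and 3.38 CPM in siTRIM28 cultures (0.52 ± 0.20, adjusted p = 0.060). Here all siTRIM28 cultures lay above all siNC cultures, on a mean of 35.0 counts per library. The groups did not overlap, in either direction, for 52% of all genes tested. PSMB9 was at 0.10 without siTRIM28 culture 1 and at 0.12 without siNC culture 3 (adjusted p = 0.67 and 0.61). The gene overlaps PSMB8 and TAP1 on the opposite strand, which held 229% to 327% and 208% to 288% of its counts. PSMB10 is overlapped on its own strand by an unnamed gene model with 45.8% to 82.8% of its counts and a log2 fold change of 0.39 (adjusted p = 0.32).

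None of the 3 immunoproteasome genes passed with edgeR, DESeq2 or limma-voom. At an unadjusted p under 0.05, 1 gene, PSMB10, was counted with edgeR, 1 with limma-voom and 0 with DESeq2. The 95% confidence intervals reached from −0.12 to 0.30 for PSMB8, from −0.13 to 0.56 for PSMB9 and from 0.07 to 0.96 for PSMB10. PSMB10 passed with upper-quartile scaling (adjusted p = 0.045) and without siNC culture 2 (0.043), with log2 fold changes of 0.55 and 0.66, and was at 0.35 without siNC culture 1 (0.22). A change in RNA per cell and a change in the share of cells that carry an RNA cannot be told apart in bulk cultures.

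**Figure D2:**
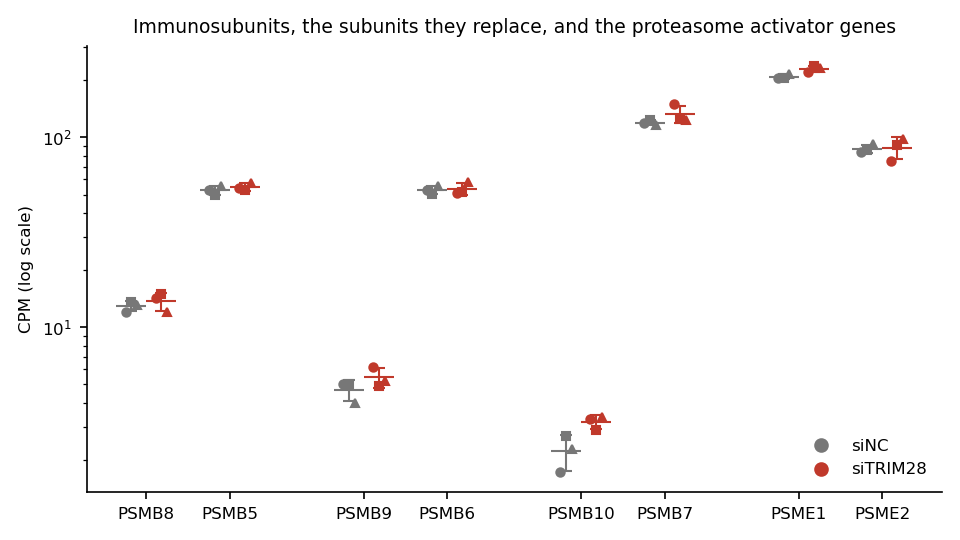
CPM (vertical axis, log scale) of each immunoproteasome gene beside the constitutive gene it replaces, and of PSME1 and PSME2, in the 3 siNC (grey) and 3 siTRIM28 (red) cultures, with circles, squares and triangles for cultures 1, 2 and 3 and bars for mean ± SD. Only PSMB10 and PSME1 have groups that do not overlap, and 52% of all genes tested have such groups.

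The balance between each inducible subunit and the subunit it replaces was compared within cultures, as a difference of log2 CPM with 2 counts added. PSMB8 over PSMB5 was −2.12, −1.85 and −2.06 in siNC and −1.92, −1.81 and −2.24 in siTRIM28 cultures, a mean difference of 0.02 (exact permutation test, two-sided, p = 0.9). PSMB9 over PSMB6 differed by 0.19, from −3.46 ± 0.25 to −3.27 ± 0.22 (SD, n = 3, exact permutation p = 0.6). PSMB10 over PSMB7 was −5.98, −5.46 and −5.58 in siNC and −5.44, −5.38 and −5.14 in siTRIM28 cultures, a difference of 0.36 (exact permutation p = 0.1). That was the smallest p that 3 against 3 can give, and adjusted over the 3 pairs the values were 0.9, 0.9 and 0.3. The PSMB10 ratios were all higher in siTRIM28 cultures, and those of the other pairs overlapped. The difference for PSMB10 over PSMB7 was 0.20 without siNC culture 1, and that for PSMB9 over PSMB6 was 0.05 without siNC culture 3 and 0.06 without siTRIM28 culture 1. PSMB8 over PSMB5 ran from −0.066 to 0.15 when 1 library was left out.

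RefSeq start windows of 300 bases, from 250 before to 50 after the start, were available for 42 of the 48 genes (51 windows, since 8 genes have more than 1 start). PSMA7, PSMB1, PSMB6, PSMB7, PSMD4 and PSMG3 have no window in the table used. A match to the response element on either strand was present in 7 of the 51 windows (13.7%), against 3.57% of all 35116 windows. The 7 genes were PSMB8, PSMB10, PSME1, PSME2, PSMB4, PSMG4 and PSMA4, of which PSME1 rose, PSMA4 fell and the others did not pass. Among 430 tested genes of the whole table whose start window holds such a match, 25.1% rose. Of all genes tested, with or without a window, 21.3% did. A gamma-activated site, TTCNNNGAA, was found in 15.7% of the windows of proteasome genes and in 7.66% of all windows. The core of the antioxidant response element, TGANNNNGC on either strand, which NFE2L1 is known to bind, was found in 62.7% and 41.8%. By gene, this core was present for 28 of the 42 proteasome genes with a window. Among the genes that rose it was present for PSMC3 and PSME1 but not for PSMC1, PSMC2, PSMC6 or PSMD7. Among the genes that fell it was present for PSMB3, PSMD1, PSMD5, PSMA4 and PSMA6 but not for PSMD6 or PSME3. PSMG3, which rose, and PSMD4, which fell, have no window. Matches of different motifs overlapped in 2 places. These are matches of letters in a window, and binding was not measured.

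The genes that act with the proteasome moved in both directions as well. Of 39 such genes in 7 lists, 14 rose and 6 fell (51.3% passed), where 41.8% of all genes tested passed, 21.3% rose and 20.5% fell. The split for each list is 1 rise among 4 further subunits and assembly factors, 2 rises and 3 falls among 8 enzymes and partners bound to the proteasome, 2 falls among 6 shuttle factors, 3 rises among 6 genes of the NFE2L1 route, 3 rises among 6 ubiquitin genes and activating enzymes, 2 rises and 1 fall among 5 genes of antigen processing, and 3 rises among 4 interferon regulators. The count was 10 with DESeq2, where 5882 of all 18474 genes tested passed, against 7723 in the main fit. Leaving out siNC culture 1 or siNC culture 2 gave 12 in each case, where 6367 and 6394 of all genes tested passed. In each of these fits the share was lower among the 39 genes than among all genes tested.

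Within the NFE2L1 route, NFE2L1 itself, the transcription factor of the subunit genes, was at 208, 208 and 210 CPM in siNC and at 230, 227 and 226 CPM in siTRIM28 cultures (log2 fold change 0.13 ± 0.04 SE, adjusted p = 0.018). NGLY1, which removes its glycans, rose by 0.23 ± 0.06 (adjusted p = 0.0092). The groups were apart for both genes, but neither passed with DESeq2 (adjusted p = 0.12 and 0.094), and NFE2L1 also did not pass without siNC culture 1, siNC culture 2 or siTRIM28 culture 3 (adjusted p = 0.10, 0.10 and 0.059). UFD1, the cofactor with which VCP pulls NFE2L1 and other proteins from the endoplasmic reticulum, went from 48.2, 46.7 and 43.9 CPM to 85.1, 89.4 and 85.05 CPM (0.90 ± 0.06, adjusted p = 2.5717e-07). DDI2, the protease that cuts NFE2L1 and is listed with the shuttle factors, had a log2 fold change of −0.11 (adjusted p = 0.25).

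Of the 8 genes for enzymes and partners bound to the proteasome, UBE3C fell most. UBE3C, a ligase that extends ubiquitin chains on stalled substrates, was at 90.4, 93.1 and 95.8 CPM in siNC and at 43.4, 45.5 and 48.1 CPM in siTRIM28 cultures (−1.03 ± 0.06 SE, adjusted p = 9.7868e-08). UCHL5, a deubiquitinase that docks on ADRM1, was at 86.0, 91.0 and 84.1 CPM against 61.7, 62.3 and 55.6 CPM (−0.54 ± 0.06, adjusted p = 2.4022e-05). ADRM1, a ubiquitin receptor of the regulatory particle, was at 60.3, 63.1 and 61.4 CPM against 74.8, 74.7 and 76.9 CPM (0.29 ± 0.05, adjusted p = 0.00064). The groups were apart for these 3 genes, with the receptor higher and its enzyme lower in every siTRIM28 culture. ZFAND5, which activates the proteasome, rose by 0.25 (adjusted p = 0.021), though not when siNC culture 1, 2 or 3 or siTRIM28 culture 2 or 3 was left out (adjusted p from 0.051 to 0.091). UBQLN4, a shuttle for tagged proteins, had a log2 fold change of −0.20 (adjusted p = 0.019). It did not pass without siNC culture 1, siNC culture 2 or siTRIM28 culture 2 (adjusted p = 0.052, 0.054 and 0.056).

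Among activating enzymes, UBA6 was at 29.6, 28.0 and 32.9 CPM in siNC and at 43.1, 45.4 and 44.0 CPM in siTRIM28 cultures (0.55 ± 0.07, adjusted p = 7.2073e-05). The groups were far apart. UBA1 and the polyubiquitin gene UBB rose by 0.19 (adjusted p = 0.045) and 0.12 (0.018), and each lost its call when siNC culture 1, 2 or 3 was left out, UBA1 also without siTRIM28 culture 2 or 3 (adjusted p up to 0.21 for UBA1 and 0.11 for UBB).

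Downstream of the proteasome, TAPBP, the chaperone that loads peptides onto MHC class I, was at 41.5, 43.3 and 38.3 CPM in siNC and at 16.8, 13.3 and 16.0 CPM in siTRIM28 cultures (−1.42 ± 0.09 SE, adjusted p = 2.6443e-07), the largest change among these 39 genes. ERAP1, which trims peptides, rose by 0.28 (adjusted p = 0.0034). The peptide transporter gene TAP1 rose by 0.23 (adjusted p = 0.035) and lost its call without any library other than siTRIM28 culture 1 (adjusted p from 0.076 to 0.16). NLRC5, the transactivator of MHC class I genes, and STAT2 rose by 0.71 (adjusted p = 0.0045) and 0.39 (0.0046). IRF1 had a log2 fold change of 0.32 (adjusted p = 0.062).

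**Figure D3:**
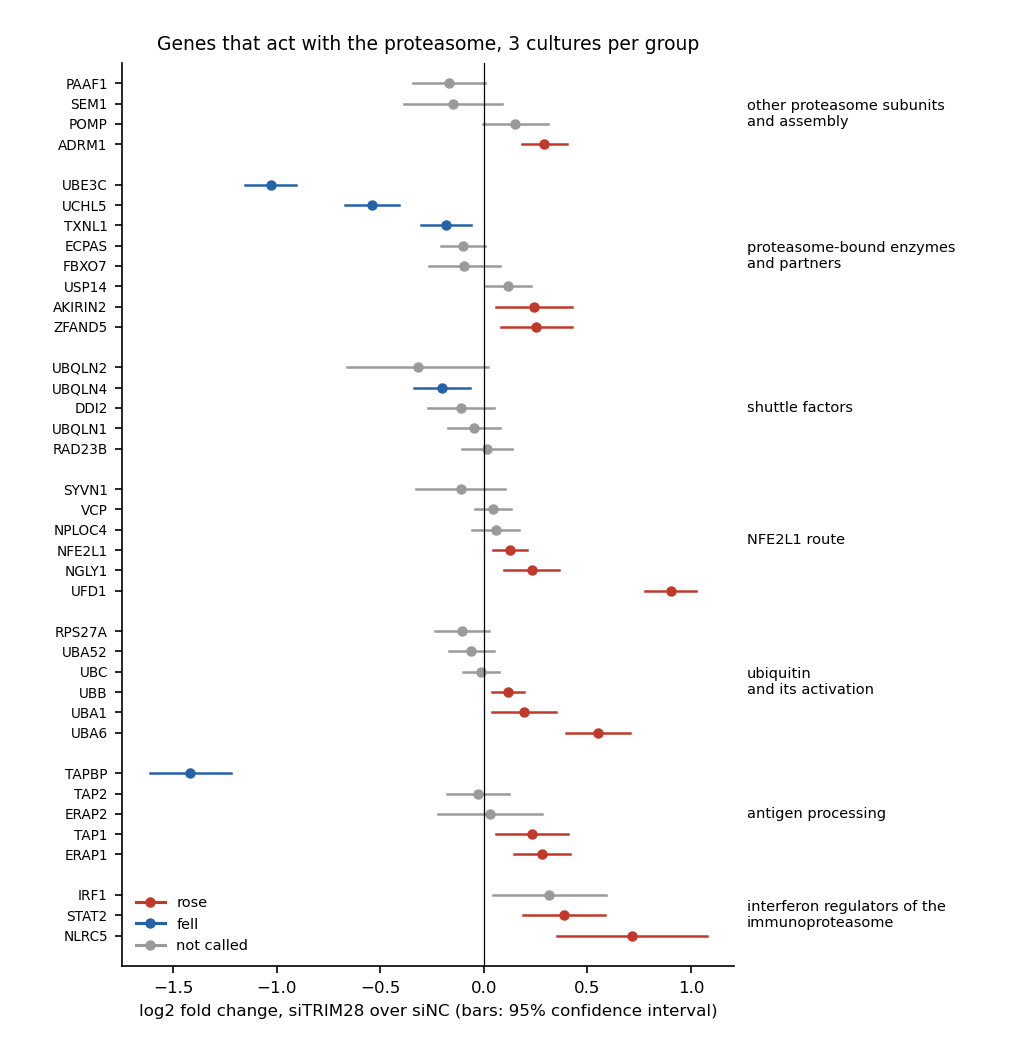
The log2 fold change in siTRIM28 over siNC cells (horizontal axis, points) with its 95% confidence interval (bars) is given for 37 genes that act with the proteasome, by list. Of these, 13 rose (red) and 5 fell (blue) at an edgeR adjusted p under 0.05, with TAPBP and UBE3C lowest and UFD1 highest.

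The standing of siTRIM28 culture 1 touched several proteasome genes. For 6 of the 46 (13%), namely PSMA2, PSMD13, PSMD11, PSMC5, PSMD8 and PSMG1, it lay on the other side of all siNC cultures from siTRIM28 cultures 2 and 3, and this was so for 4.36% of all genes tested. PSMG1, an alpha-ring assembly chaperone, was at 18.9, 20.9 and 20.9 CPM in siNC, at 25.4 CPM in siTRIM28 culture 1 and at 18.3 and 18.5 CPM in the others. PSMD11, a lid subunit, was at 61.4, 64.3 and 63.9 CPM in siNC, at 70.5 CPM in siTRIM28 culture 1 and at 55.8 and 53.5 CPM in the others. PSMD8, another lid subunit, showed the opposite order, at 200, 208 and 215 CPM, 191 CPM, and 232 and 231 CPM. Without siTRIM28 culture 1, 20 of the 43 constitutive genes passed (9 rose and 11 fell). In that fit 8252 of all 18474 genes tested passed, against 7723 with all 6 libraries. The 20 included all 15 named above, and PSMA7, PSMD8, PSMD11, PSMD13 and PSMG4 in addition. Without siNC culture 1, 10 constitutive genes passed, and PSMA4, PSMC1, PSMC3, PSME1 and PSMG3 were lost. Of all genes tested 6367 passed in that fit.

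A guide strand can also lower other transcripts whose 3′ UTR matches its seed, bases 2 to 8. The 3′ UTRs of GENCODE v29 were searched for the seed matches of both TRIM28 siRNAs listed by the study. For siTRIM28-2, 8 of the 46 tested proteasome genes held a match (17.4%), against 18% of 12119 tested genes, and for siTRIM28-1, 6 did (13%), against 15.3%. Among the 8 genes that fell, PSME3 held both matches, PSMA4 held that of siTRIM28-1, and PSMB3, PSMD1, PSMD4, PSMD5, PSMD6 and PSMA6 held neither. Among all tested genes with an annotated 3′ UTR 26.3% fell, against 42.2% of the 2181 with the match of siTRIM28-2 and 28.3% of the 1851 with that of siTRIM28-1. The part of these matches in the fall of PSME3 was not tested.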

How the data were processed

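Total RNA of T24 cells was extracted after transfection with siNC or siTRIM28, and poly(A) libraries were made with a stranded kit. The authors deposited raw read counts per gene. The submitters' processing notes name fastp 0.23.1, STAR 2.7.6a, featureCounts and GRCh38. The annotation release, the strand setting and the handling of reads that overlap several genes are not given in the sources used here, and 29 of the 48 genes overlap another gene with at least 10 counts on average. A second deposited file holds RPKM values of genes that the authors called different, and it was not used.

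Counts of the whole table were scaled by TMM and tested with the quasi-likelihood test of edgeR 4.0.16 (R 4.3.3) over the genes that reached 10 counts in 3 or more libraries, with the 6 libraries in 1 fit and no covariates. P-values were adjusted by Benjamini-Hochberg over all 18474 genes tested, with a threshold of 0.05. "Rose" and "fell" refer to this threshold. Values in CPM use the TMM-scaled totals of the genes tested. RPKM values divide by the gene length given with the counts. Standard errors were derived from the F statistic. DESeq2 1.42.0, limma 3.58.1 (voom) and other scalings, filters and subsets of libraries were run as alternatives. The fit was also run on simulated counts. Far fewer genes were changed in them than passed here, so they do not cover changes of this extent.

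Values in each culture are given for the immunoproteasome genes, the subunits they replace, PSME1, PSME2, and in each subcomplex the 3 genes that passed with the largest change and at least 50 counts on average. PSMC1, PSMD7, PSMG1, PSMD8 and PSMD11 were added after their values were seen. In the other lists up to 3 genes that passed are named, and IRF1 and DDI2 were added later. Some genes of the lists, and a marker, are counted but not reported here by name. The interferon-induced genes, motifs and seed matches were also chosen after the data were seen. Members and lists were chosen with earlier results of these data known. The labels call the cultures biological replicates. P-values set the difference between the groups against the spread between cultures of a group. Between siNC cultures 1 and 2 and between siTRIM28 cultures 2 and 3 that spread was near counting noise (chi-square per degree of freedom 1.08 and 1.24). Whether these pairs are independent cultures was not tested. With each pair summed into 1 sample, 11 constitutive proteasome genes and 5935 of all 18474 genes tested passed. Start windows came from RefSeq tables and 3′ UTRs (the longest of each gene, at least 30 bases) from GENCODE v29.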

Additional observations from a re-analysis of the deposited data

How the results depend on the processing

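Depth limits the statements on PSMB10 (35.0 counts per library), PSMB9 (66.3), NLRC5 (77.7) and PSMG3 (92.2). The setting for reads shared by overlapping genes is not given. Unnamed gene models on the same strand held 97.4% to 104% of the counts of PSMA6 and 92.1% to 96.9% of those of PSMD9. Such models held 110% to 126% of the counts of PSMA1 and 109% to 118% of those of PSMA2. How far these pairs share reads was not tested. The number of constitutive proteasome genes past the threshold was 15, between 11 and 16 under other scalings, tools and filters, 9 at an adjusted p under 0.01, and from 10 to 20 when 1 library was left out. The fits without siTRIM28 replicate 1 and without siNC replicate 1 gave the highest and the lowest of these. PSMA4 lost its call under 12 of 16 alternatives, PSME1 under 8, PSMG3 under 7, PSMC3 under 3, and PSMC1 and PSMA6 under 2 each. The 9 other proteasome genes that passed did so under every alternative run. The number of immunoproteasome genes past the threshold was 0, and 1 (PSMB10) with upper-quartile scaling, with a range of 0 to 1 when 1 library was left out. Among the 39 other genes it was 20, against 10 with DESeq2, 11 with the closest pair of libraries in each group summed into 1 sample, 11 at an adjusted p under 0.01, and from 12 to 25 when 1 library was left out.

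The median log2 fold change of the constitutive genes was 0.0084. It was 0.043 with upper-quartile scaling, 0.028 with total counts, −0.0023 without the count filter, −0.013 with the close pairs summed, and from −0.015 to 0.014 when 1 library was left out. The median of all genes tested was 0.015, and 0.049 with upper-quartile scaling, 0.034 with total counts, 0.070 without the filter and 0.015 with the close pairs summed. Genes that had not passed changed sign in places. With the close pairs summed, PSMB6 was at −0.013 and PSME2 at −0.048. With 1 library left out, PSMB6 ran from −0.055 to 0.052, PSME2 from −0.069 to 0.13, and the log2 ratio of PSMB8 to PSMB5 from −0.066 to 0.15. Adding rows off the primary chromosomes could not be run for these genes, since no such row bears their names.

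Replicate numbers were not taken as pairs, since the deviations of cultures with the same number correlated at only −0.0118 to 0.0523. With the number as a replicate block, 14 constitutive genes passed, PSMA4 being lost (edgeR adjusted p = 0.051). Of the 39 other genes 20 passed, without TAP1 (0.064), and 7910 of all 18474 genes tested did.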
